A study of Mus musculus with 8 samples.

Results

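Thalamus spots were the spots of each brain section with the highest summed level of 6 thalamic genes, and they numbered 2135 of the 21328 spots kept from 8 coronal hemibrain sections of the mouse. A spot is a 55 µm circle of a Visium capture array, which holds several cells or parts of cells, so that all values below are of mixed tissue. Spots with at least 200 genes and at most 30% of UMIs (unique molecular identifiers, each counting 1 captured transcript) from mitochondrial genes were kept, and 768 spots were left out. The score of a spot was its summed UMIs of Prkcd, Tcf7l2, Shox2, Tnnt1, Synpo2 and Plekhg1 per 10000 UMIs, and the members were the top 10% of each section. These 6 genes therefore carry no result of their own.

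The mice were p16-3MR transgenics in all groups, in which the p16 promoter drives a reporter that contains a viral thymidine kinase, so that ganciclovir acts on cells with an active p16 promoter. PTX+GCV mice (2 sections) and PTX+ABT263 mice (2 sections) had received paclitaxel and then ganciclovir at 25 mg/kg/day or ABT263, an inhibitor of BCL-2 family proteins also called navitoclax, at 1.5 mg/kg/day, each for 2 cycles of 5 days with 2 weeks between cycles. PTX mice (2 sections) had received paclitaxel, a microtubule-stabilising drug of cancer chemotherapy, at 5 mg/kg/day in 2 cycles of 5 days, 7 days apart, and Control mice (2 sections) its DMSO and saline vehicle. The labels give male mice of 9 to 10 months and, in the titles of all 8 samples, call the brains young, and brains were taken 6 months after paclitaxel and perfused with buffered saline. Nothing in the labels says that the sections of a group were cut from different animals, so the p-values below measure the spread between sections, which may be technical.

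The libraries held 235 to 284 thalamus spots per section, with 1848799 to 3964374 UMIs in all and a median of 7684 to 15201.5 UMIs per spot. Both of the following bear on every comparison. Xist, which silences an X chromosome in female cells, stood at 14.9 and 10.1 CPM (UMIs per 1000000) in thalamus spots of the sections labelled PTX+ABT263, and at 0 in those of the other 6 sections. Ddx3y, a Y-chromosome gene, stood at 0.50 and 0 CPM there and at 31.1 to 41.6 CPM in the other 6 sections. These levels go against the label of male mice for that group, so its counts of calls are also given outside chromosomes X and Y, and those of the other comparisons also without it. PTX section 2 stood apart in the score itself: its thalamus spots held 7.49 UMIs of Prkcd per 10000, PTX section 1 held 14.97, and the other 6 sections held 17.0 to 22.4.

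The thalamus relays sensory, motor and limbic signals to the cortex, mostly through excitatory neurons that release glutamate. Its relay nuclei differ in their genes, and neurons of the midline, intralaminar and other calbindin- or calretinin-rich territories stand apart from those of the principal sensory and motor nuclei. Relay neurons fire in bursts through low-threshold T-type calcium channels, and they are inhibited by the GABAergic neurons of the reticular nucleus at the border of the thalamus.

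On the array the members formed 1 main patch in each section, as the map of spot positions shows. Of the kept neighbours of a thalamus spot, 68.6% to 83.2% were thalamus spots too, against 1.95% to 3.67% of the neighbours of other spots. Spots with all 6 neighbours inside the set, called inner spots here, made up 51.1% of the members in PTX section 2, 27.3% in PTX section 1 and 17.4% to 33.1% in the other 6 sections. At most 5.11% of the members of a section lay at the border of the tissue or array.

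**Figure D1:**
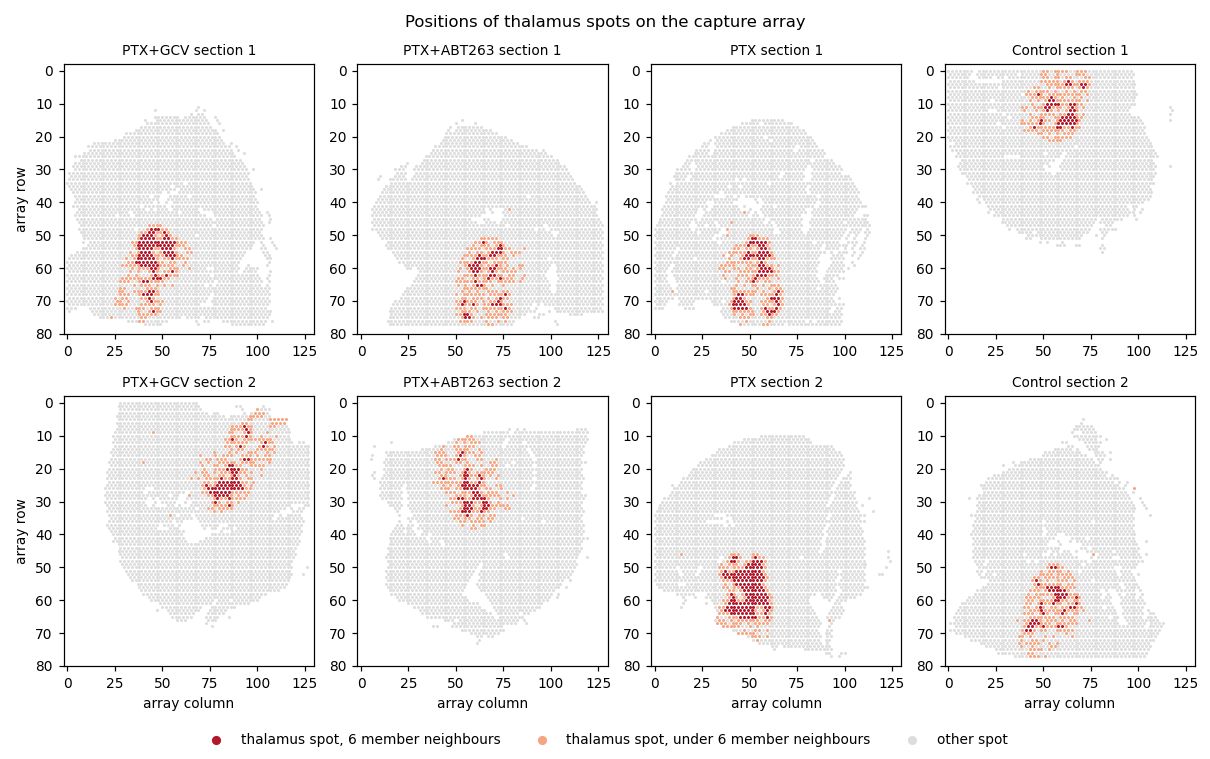
Positions of the kept spots of each section on the capture array, by array column (horizontal axis) and array row (vertical axis), 1 panel per section. Thalamus spots with all 6 neighbours inside the set are dark red, the remaining thalamus spots are light red and other spots are grey, and PTX section 2 had the largest share of dark red spots, 51.1% of its members.

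The score fell off steadily at the limit of the set. In PTX section 1 the last spot inside scored 18.07 and the first outside 17.99, and in Control section 2 these were 27.47 and 27.42. A single limit for all sections, 23.1825, would have held 171 and 80 spots in the PTX sections and 224 to 317 in the others. Prkcd, which encodes protein kinase C delta, and Tnnt1, a troponin T gene (1.23 to 3.99 UMIs per 10000), varied more among sections than the transcription factors of the score. Tcf7l2, a factor of Wnt signalling, ran from 4.91 to 6.04 UMIs per 10000 in thalamus spots, and the homeobox factor Shox2 from 1.75 to 2.11, with PTX section 2 the highest for both.

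**Figure D2:**
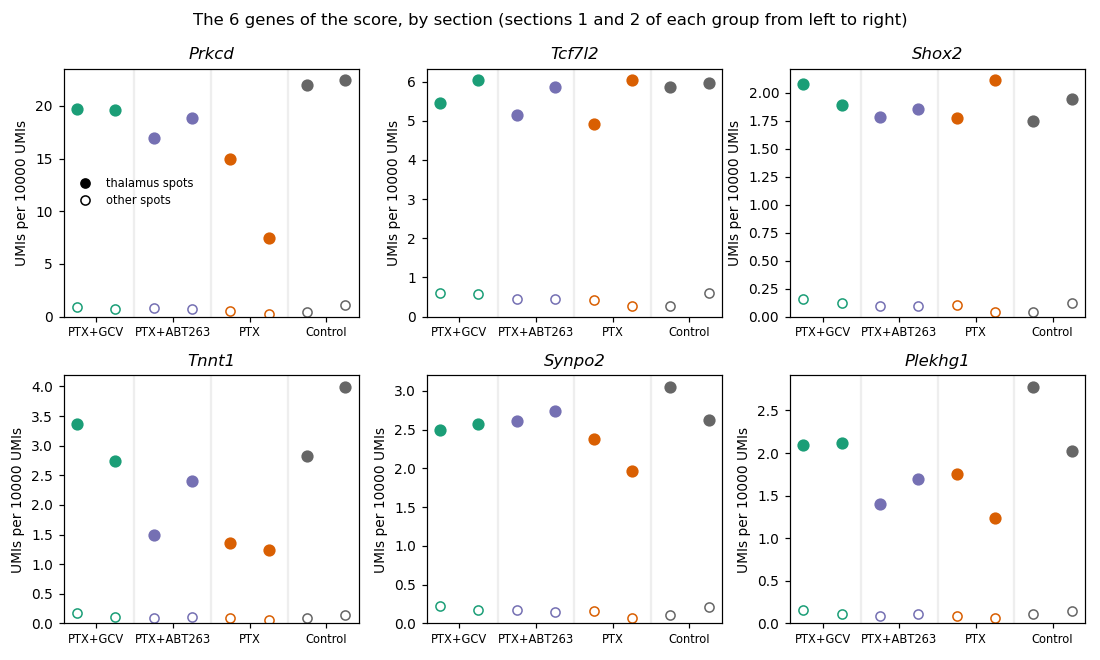
Level of each of the 6 score genes in UMIs per 10000 (vertical axis) in thalamus spots (filled) and other spots (open) of every section, grouped by treatment. Prkcd was lowest in PTX section 2 at 7.49, while Tcf7l2 and Shox2 were highest there; the difference between filled and open points is set by the rule.

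Outside the 6 score genes, thalamus spots carried the expression profile of thalamic relay tissue. Of 4107 genes with at least 50 CPM in either set of spots, 1494 (36.4%) were higher in thalamus spots in 8 of 8 sections and 1036 (25.2%) were lower, and 147 and 165 of them differed at least 2-fold every time. All 15 genes of a list of other thalamic genes were higher in every section, with a median log2 ratio of 2.98, against 0.06 over all 4107 genes. That list was chosen with earlier results of these data known, so the count of 15 adds no support. Since spots with the highest score were taken from these same sections, these ratios describe the set and were not tested. In such mixed tissue fewer cells of a type and less RNA per cell cannot be told apart.

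Abhd12b (chromosome 12, 70154142 to 70183887, plus strand of GRCm38), a member of the alpha/beta-hydrolase family, led the list with a mean of 63.6 CPM in thalamus spots and 1.96 CPM in other spots. Its median log2 ratio was 4.92 (range 4.41 to 6.19). Transcription factors of the thalamus were among the leading 20. Lef1, a partner of beta-catenin, had 138 and 135 CPM in thalamus spots of PTX+GCV sections, 122 and 120 in those labelled PTX+ABT263, 115 and 94.3 in PTX and 128 and 120 in Control sections. In other spots Lef1 stayed between 4.67 and 12.6 CPM, so that the sets did not overlap in any section. The homeobox gene Gbx2 (58.1 CPM in thalamus spots against 5.42 CPM in other spots, median log2 ratio 3.46), the zinc-finger gene Zic1 (293 against 32.5 CPM, 3.05) and the nuclear receptor Rora (425 against 53.3 CPM, 2.98) behaved alike.

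The leading 20 also held Rab37, a small GTPase of vesicle traffic, which averaged 142 CPM in thalamus spots and 9.11 CPM in other spots. The receptor modifier Ramp3 averaged 419 and 39.7 CPM, the axonal adhesion protein netrin-G1 (Ntng1) 435 and 42.1 CPM, and the G-protein regulator Rgs16 200 and 15.97 CPM. The spots of the next 10% by score lay between the sets for each of these genes, with 97.1 CPM for Rgs16.

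Genes of the forebrain around the thalamus were lowest. Nrgn, the postsynaptic calmodulin-binding protein neurogranin, averaged 104 CPM in thalamus spots and 1962 CPM in other spots, a median log2 ratio of -4.42. Lamp5 (5.91 CPM in thalamus spots against 161 CPM in other spots), the enkephalin gene Penk (15.2 against 277 CPM) and the substance P gene Tac1 (4.94 against 83.5 CPM) were as low in proportion. Of the hypothalamic genes at 50 CPM or more, 7 of 7 were lower in every section, as were 5 of 6 genes of the reticular nucleus list, 6 of 8 isocortical genes and 4 of 5 striatal genes. The other 2 isocortical genes, Cux2 and Nrn1, went the other way and were higher in thalamus spots in every section.

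**Figure D3:**
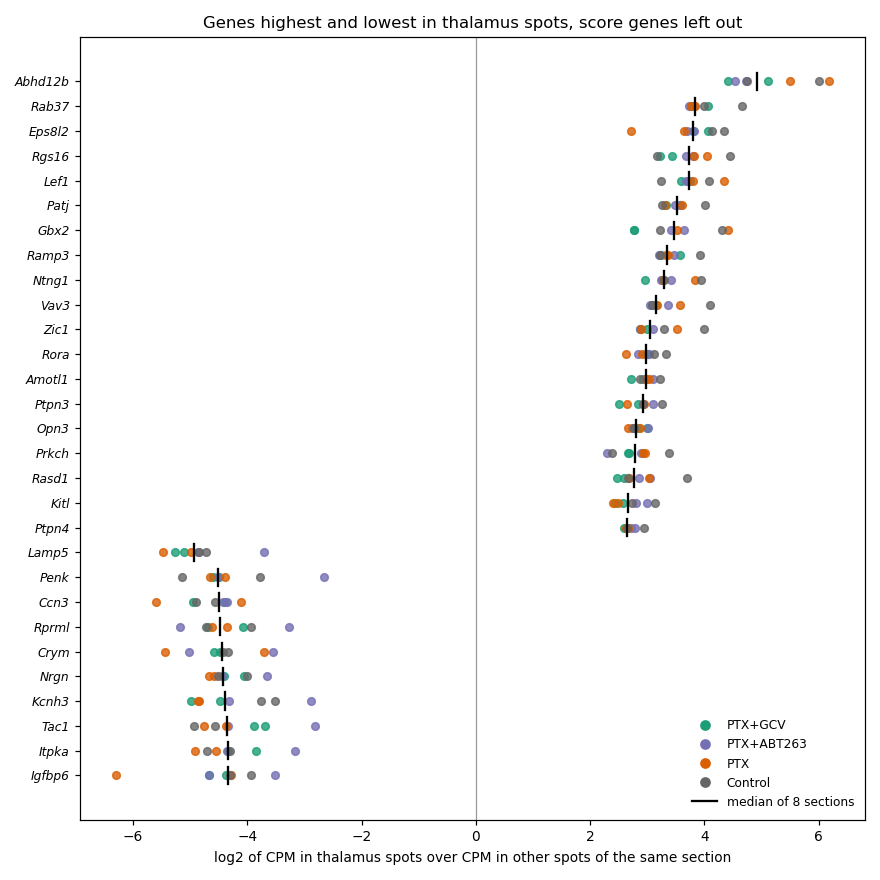
Log2 of the CPM in thalamus spots over the CPM in other spots of the same section (horizontal axis) for 19 of the 20 highest and for the 10 lowest named genes, with 1 point per section coloured by group and a bar at the median of 8 sections. Every point of Abhd12b lies above 4.4 and every point of Nrgn below -3.6.

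Transmitter and channel genes separated by family member. The genes of this paragraph and the next were chosen after their values were seen. Slc17a6, the vesicular glutamate transporter of subcortical neurons, averaged 437 CPM in thalamus spots and 70.1 CPM in other spots, while the cortical transporter Slc17a7 averaged 308 and 590 CPM. Among T-type channel genes, Cacna1g was higher (164 CPM in thalamus spots against 36.6 CPM in other spots, median log2 ratio 2.09) and Cacna1h lower (3.11 against 25.6 CPM, -2.83). The pacemaker channel gene Hcn2 was higher (342 CPM in thalamus spots against 146 CPM in other spots, 1.25). Each of these 5 genes had the same sign in 8 of 8 sections.

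Receptor subunits divided in the same way. The GABA-A receptor subunits Gabra4 (339 CPM in thalamus spots against 66.7 CPM in other spots) and Gabrd (240 against 70.2 CPM), which form extrasynaptic receptors in relay neurons, were higher, and Gabra5 (8.42 against 52.3 CPM) was lower. The nicotinic subunit Chrna4 had 132 CPM in thalamus spots against 26.5 CPM in other spots and the adrenergic receptor Adra1b 109 against 20.6 CPM, while the muscarinic receptor Chrm1 had 6.56 against 96.4 CPM. The GABA-synthesising enzyme Gad1 averaged 48.1 CPM in thalamus spots and 325 CPM in other spots. Of 13 immediate early genes, 9 were lower in thalamus spots in every section, among them Arc at 11.8 CPM in thalamus spots against 117 CPM in other spots, and 1, the phosphatase gene Dusp1, was higher.

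Glial and vascular lists were less one-sided. Of 15 astrocyte genes 9 were higher and 4 lower: the GABA transporter Slc6a11 had 281 CPM in thalamus spots against 103 CPM in other spots and the filament gene Gfap 25.0 against 79.3 CPM. The 11 myelin genes and the 3 haemoglobin genes at this level had no member that was higher or lower in every section. Summed over its 15 genes, the myelin list had a median log2 ratio of 0.50 and was lower in thalamus spots only in PTX section 2 (-0.23). Leaving out the sections labelled PTX+ABT263 moved the median log2 ratio of the 30 leading genes by at most 0.376.

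The genes that set thalamic territories apart from each other varied between sections. Calb2, which encodes calretinin, stood at 61.3 and 61.1 CPM in thalamus spots of PTX+GCV sections, 44.4 and 57.7 in those labelled PTX+ABT263, 80.9 and 411 in PTX and 70.3 and 30.8 in Control sections. Only in PTX section 2 was it above the other spots. Kcnab3, a beta subunit of voltage-gated potassium channels, was above the other spots in 5 of 8 sections, with log2 ratios from -0.98 to 1.28. Inner and outer members differed in the same genes, as a description of where in the patch they lay. Calb2 averaged 31.8 CPM in inner and 145 CPM in outer thalamus spots, lower inside in 8 of 8 sections, and the calcium-binding genes Necab1 (89.7 against 202 CPM) and Calb1 (142 against 205 CPM) were likewise lower inside in 8 of 8. Kcnab3 (86.2 CPM inside against 47.9 CPM outside), the adhesion receptor Adgrf5 (63.2 against 40.9 CPM) and the retinaldehyde dehydrogenase Aldh1a1 (228 against 173 CPM) were higher inside in 8 of 8, and Slc17a6 was not ordered (424 against 441 CPM, higher inside in 3 of 8).

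The comparison of PTX with Control asks what paclitaxel had left in the thalamus 6 months later. Calb1, Necab1 and Nxph1 were higher in PTX thalamus spots, and Kcnab3, Adgrf5 and Slc17a7 were lower. No gene of the microglial, general endothelial, myelin or mitochondrially encoded lists passed the test. Of the study's list of arterial, venous and capillary endothelium 1 of 8 genes tested rose, Tmsb10. Of 14 potassium channel genes 7 fell and 1 rose, while of 19 calcium buffers and sensors 4 rose and 5 fell. In edgeR's quasi-likelihood test with Benjamini-Hochberg adjustment, on the summed counts of each section, 677 of 12298 genes passed at 0.05 (5.5%), 334 higher (2.72%) and 343 lower (2.79%), and 2196 had an unadjusted p under 0.05. For 672 of the 677 genes the sections of the groups did not overlap. A small p favours such separation and its share over all 12298 genes was not counted, so this adds no support. The count fell to 258 with PTX section 2 left out, to 332 with Control section 1 and to 275 with Control section 2 left out, and was 1140 with PTX section 1 left out. Without the sections labelled PTX+ABT263 it was 581. No more than 1 of the 677 genes changed sign under any of 18 alternatives. The alternatives reuse the counts that the genes were picked from, and some drop called genes, so this adds no support either.

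Calb1, encoding calbindin, had 231 and 357 CPM in PTX sections and 133 and 118 CPM in Control sections, a log2 fold change of 1.23 ± 0.15 (SE; adjusted p = 3.57e-05, edgeR). Necab1 (chromosome 4, 14952245 to 15149794) had 234 and 338 CPM in PTX sections against 119 and 72.6 CPM in Control sections (1.62 ± 0.19, adjusted p = 2.62e-05). For both genes the groups did not overlap, but this was a condition for naming leading genes and adds no support. Calb2 rose by 2.38 ± 0.43 (adjusted p = 0.00154), with 81.1 and 409 CPM in PTX against 66.9 and 32.0 CPM in Control sections, so that most of that change lay in PTX section 2.

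The fourth calcium buffer gene that rose was Ncald, and the 5 that fell included the plasma membrane calcium pump genes Atp2b1 and Atp2b2, and the median of the list was -0.08, against 0.0040 over all genes tested. Nxph1, a secreted ligand of alpha-neurexins on chromosome 6 (8948431 to 9249032), had 51.8 and 76.4 CPM in PTX sections against 21.6 and 18.2 CPM in Control sections (1.70 ± 0.19, adjusted p = 2.35e-05). The stathmin Stmn1, a tubulin-binding protein, had 844 and 1330 CPM in PTX against 529 and 481 CPM in Control sections. In both genes PTX section 2 was the higher of its pair. The growth-cone protein gene Gap43 rose by 0.87 ± 0.13 (adjusted p = 0.000241), and of 13 neurofilament and stathmin genes 2 rose and 2 fell.

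Kcnab3 had levels that hardly varied within a group, at 29.6 and 30.1 CPM in PTX sections against 74.7 and 74.1 CPM in Control sections. Its log2 fold change was -1.32 ± 0.16 (adjusted p = 3.53e-05). The Kv3 channel gene Kcnc1 (260 and 183 CPM in PTX, 388 and 389 CPM in Control sections, adjusted p = 0.000626) fell with it. Among potassium channel genes the 1 that rose was Kcnip1, and the median of the list was -0.42. Of 13 T-type and pacemaker channel genes and their relatives 1 fell, Kcnn1 (9.94 and 6.85 CPM in PTX, 23.2 and 19.1 CPM in Control sections).

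Transmission genes moved both ways. Slc17a7 had 225 and 132 CPM in PTX sections and 367 and 398 CPM in Control sections (-1.10 ± 0.16, adjusted p = 0.00017), and complexin 1 (Cplx1), a clamp of vesicle release, 1186 and 880 CPM in PTX against 1693 and 1715 CPM in Control sections (adjusted p = 0.00181). Of 20 glutamate genes 5 rose and 7 fell. Of 14 GABA receptor genes 3 rose, among them Gabra5 (9.43 and 21.4 CPM in PTX, 2.06 and 3.88 CPM in Control sections), and Gabrd fell (191 and 175 CPM in PTX, 265 and 283 CPM in Control sections).

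Further decreases were Adgrf5 (18.9 and 20.5 CPM in PTX against 60.2 and 80.1 CPM in Control sections, -1.86 ± 0.20, adjusted p = 2.35e-05) and the Wnt receptor gene Fzd6 (12.7 and 7.67 CPM in PTX against 39.1 and 37.6 CPM in Control sections, -1.89 ± 0.22, adjusted p = 2.62e-05). Carbonic anhydrase 7 (Car7) had 31.6 and 19.7 CPM in PTX sections against 54.6 and 69.0 CPM in Control sections, and Aldh1a1 118 and 105 CPM in PTX against 221 and 208 CPM in Control sections. In each of these 4 genes the PTX sections were lower than either Control section, a condition for naming leading genes that adds no support. Lars2, mitochondrial leucyl-tRNA synthetase, fell by 2.01 in thalamus spots (99.2 and 156 CPM in PTX, 726 and 314 CPM in Control sections). In other spots its difference was -2.27 with an adjusted p of 0.113 (edgeR). The noncoding genes Gm42418 (-1.96) and Malat1 (-1.03) were called lower with it. Genes of cytosolic ribosomal proteins were called higher, such as Rpl10 (0.76) and Rps27 (0.59). They were not tested as a set, and their share of that family was not counted.

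Of the 15 other thalamic genes 1 rose (Gbx2) and 5 fell, with a median of -0.35. Gbx2 had 63.5 and 92.9 CPM in PTX sections against 36.6 and 49.3 CPM in Control sections (adjusted p = 0.00477). Among those that fell were the RNA editing enzyme Adarb1 (595 and 465 CPM in PTX against 865 and 798 CPM in Control sections, adjusted p = 0.0021) and the angiomotin family gene Amotl1 (194 and 169 CPM in PTX against 304 and 282 CPM in Control sections, adjusted p = 0.000752). Amotl1 was also lower in other spots (-0.72, adjusted p = 0.0335). With 1 score limit for all sections the calls of Gbx2, Adarb1, Calb2, Ncald, Atp2b1, Atp2b2, Kcnip1, Gabra5, Gabrd, Gad2, Sst, Hcrt and Slc1a3 were lost, and in DESeq2 those of Calb2, Ncald, Sst, Hcrt and Aqp4. DESeq2 gave no adjusted p for Kcnip1, Gabra5, Gpr151, Avp and Oxt.

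**Figure D4:**
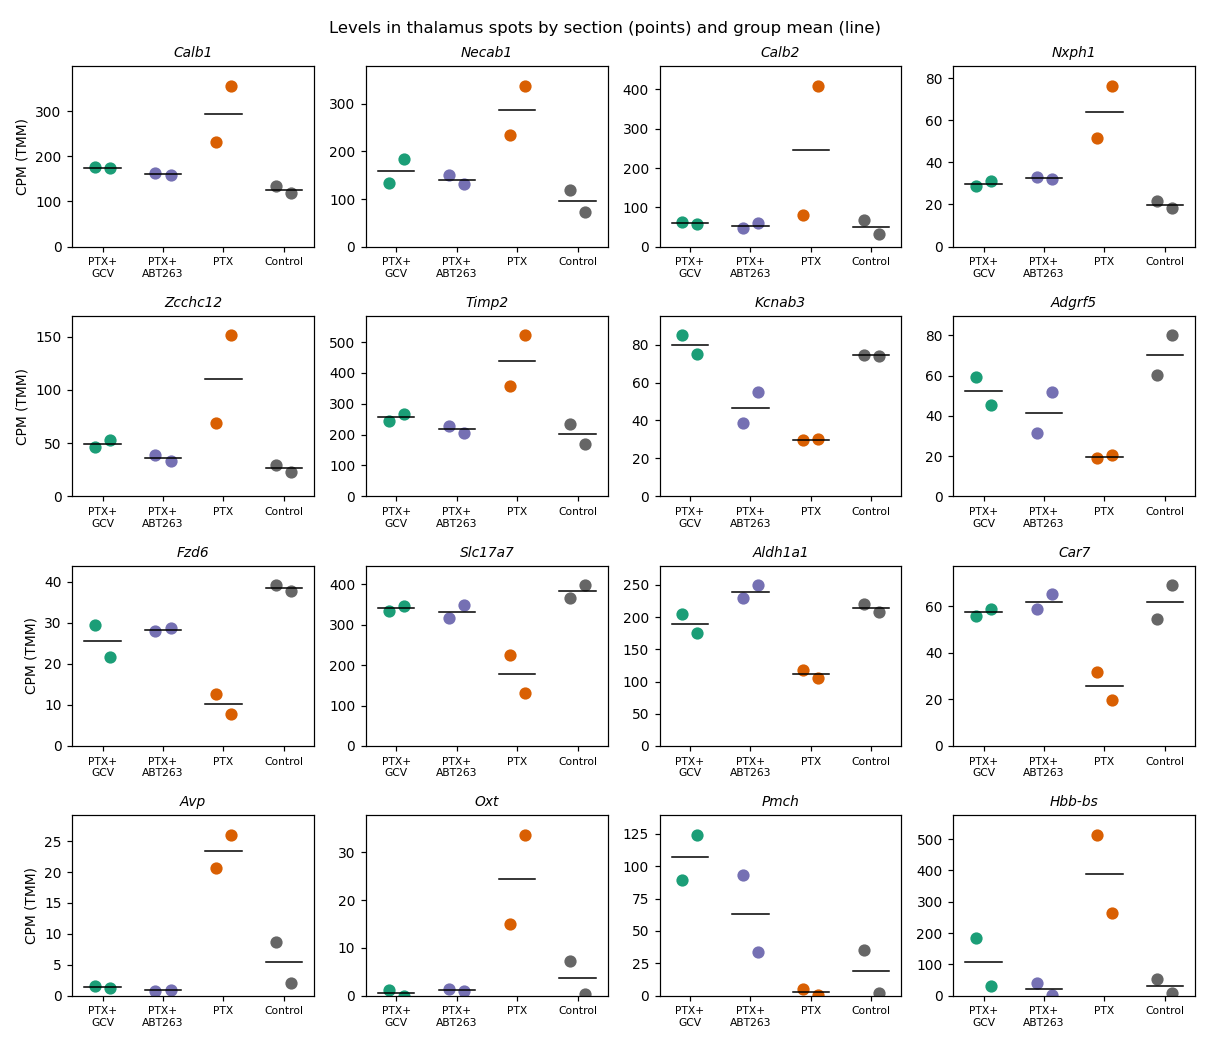
CPM in thalamus spots (vertical axis, scaled by the trimmed mean of M values) of 16 genes in each section (points), by treatment group, with a line at the group mean. Calb1, Necab1 and Nxph1 were higher in each PTX section than in either Control section and Kcnab3, Adgrf5 and Fzd6 lower, and Calb2 reaches 409 CPM in 1 PTX section only.

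Genes of neighbouring territories moved with the PTX sections too. Of 9 reticular nucleus genes 5 rose in edgeR and 1 in DESeq2, and none fell. Among them were Gad2 (29.8 and 36.7 CPM in PTX, 18.5 and 13.7 CPM in Control sections) and the somatostatin gene Sst (43.9 and 78.3 CPM in PTX, 37.6 and 27.2 CPM in Control sections). The 9 genes of that list summed to 6.27 and 4.55 UMIs per 10000 in PTX thalamus spots and 5.20 and 4.99 in Control thalamus spots, with no gene at 0. The 10 habenula genes summed to 0.999 and 4.58 UMIs per 10000 in PTX sections, 0.85 and 0.49 in Control sections and 0.71 to 0.87 in the other 4, with no gene at 0. Calb2, which also sets thalamic territories apart, belongs to this list and made up most of the sum in every section. Of 6 habenula genes tested 2 rose in edgeR and 0 in DESeq2, Calb2 and Gpr151 (2.04 and 10.4 CPM in PTX, 1.03 and 0.60 CPM in Control sections). The part of these neighbours in the result was not tested.

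Hypothalamic peptide genes that passed in thalamus spots also varied widely between the other spots of these sections. Avp, vasopressin, had 20.7 and 26.0 CPM in PTX thalamus spots and 8.75 and 2.09 CPM in Control thalamus spots (2.31 ± 0.37, adjusted p = 0.000476), and its other spots held 346 and 269 CPM in PTX and 154 and 2.39 CPM in Control sections. Oxt, oxytocin, rose by 3.03 ± 0.55 (adjusted p = 0.00162). Avp and Oxt passed the filter on low counts through the PTX sections, where they were highest, so their calls are given as a description. Hcrt, orexin, was called lower (0.77 and 0.55 CPM in PTX, 29.9 and 0.60 CPM in Control sections, adjusted p = 0.0179), but its groups overlapped and, of these 4 sections, only Control section 1 held more than 1 CPM. Without that section its log2 difference was 0.14 (adjusted p = 0.976). Of 11 hypothalamic genes 4 rose and 1 fell in edgeR, and 1 passed in DESeq2. The 12 genes summed to 3.44 and 4.82 UMIs per 10000 in PTX thalamus spots and 3.27 and 2.47 in Control thalamus spots, with none at 0, and their part in the result was not tested.

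Blood RNA was higher in PTX thalamus spots. Hbb-bs, beta-globin, had 514 and 263 CPM in PTX sections and 53.6 and 9.26 CPM in Control sections (3.83 ± 0.62, adjusted p = 0.000575), and 4 of 4 haemoglobin genes tested rose. None of the 4 passed in DESeq2. The 5 haemoglobin genes summed to 10.2 and 5.08 UMIs per 10000 in PTX thalamus spots and 1.40 and 0.17 in Control thalamus spots. In other spots they summed to 2.58 and 3.20 in PTX and 0.86 and 0.64 in Control sections, so they were higher there too. Endothelial (0 of 16 tested), microglial (0 of 13), myelin (0 of 15), p53-target (0 of 11), BCL-2 family (0 of 11), tubulin (0 of 11) and mitochondrially encoded genes (0 of 13) had no member past the test in edgeR, with 0, 1, 5, 0, 2, 5 and 0 of them at an unadjusted p under 0.05 and none passing in DESeq2. These lists do not hold every gene of a cell type: in the study's list of arterial, venous and capillary endothelium Tmsb10 rose (log2 fold change 0.59), 1 of 8 tested. Of 15 astrocyte genes the glutamate transporter Slc1a3 rose (186 and 215 CPM in PTX, 129 and 129 CPM in Control sections) and the water channel Aqp4 fell (56.1 and 64.1 CPM in PTX, 90.1 and 84.2 CPM in Control sections).

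The genes called in PTX against Control were also unevenly placed within the patch. The 4 sections labelled PTX+GCV and PTX+ABT263 lie outside that contrast but enter its fit through the filter, the scaling and the spread, so they are not independent of the calls. In them 162 of the 334 higher genes (48.5%) were lower in inner than in outer thalamus spots in 4 of 4 sections, against 10.8% of all genes tested. Of the same genes 3 (0.898%) were higher in 4 of 4, against 7.97%. Of the 343 lower genes, 128 (37.3%) were higher in inner spots in 4 of 4 sections and 12 (3.499%) were lower. Zcchc12, a zinc-finger gene, shows both differences: it had 68.6 and 151 CPM in PTX sections and 29.9 and 23.0 CPM in Control sections, and 26.7 CPM in inner against 70.8 CPM in outer thalamus spots over all sections. PTX section 2, which had the lowest Prkcd, also had the largest share of inner spots. Inner spots alone held 33.4 and 70.9 CPM of Zcchc12 in PTX and 14.9 and 16.7 CPM in Control sections. Outer spots alone held 81.6 and 226 CPM in PTX and 36.0 and 23.4 CPM in Control sections. Kcnab3, which fell, had 30.6 and 42.9 CPM in PTX inner spots against 102 and 99.9 CPM in Control inner spots. In outer spots it had 29.1 and 18.5 against 71.9 and 64.6 CPM. Few genes were looked at in this way, and none was tested. Whether the sets of PTX and Control sections hold the same thalamic nuclei was not tested.

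**Figure D5:**
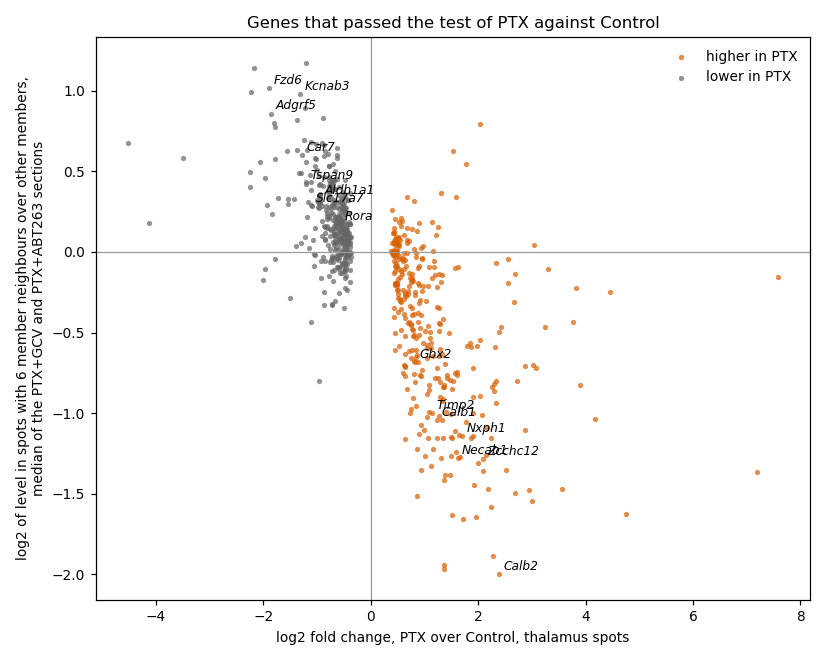
Log2 fold change of PTX over Control in thalamus spots (horizontal axis) against the log2 ratio of inner to outer thalamus spots (vertical axis, median of the PTX+GCV and PTX+ABT263 sections) for the 677 genes called, 1 point per gene. Higher genes such as Calb2, Necab1 and Zcchc12 lie mostly below 0 and lower genes such as Kcnab3 and Fzd6 mostly above 0.

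Set against the other spots of the same sections, the PTX effect passed for no gene. The other spots alone gave 4 higher and 7 lower genes of 16521 tested in edgeR. The difference of differences, fitted in limma over 12298 genes, had 0 calls with 1780 genes at an unadjusted p under 0.05, and its smallest adjusted p was 0.132. On simulated data this fit recovered 4.48% of 2-fold and 80.3% of 4-fold changes, against 62.7% and 97.0% for the edgeR test within thalamus spots. The simulated thalamus and other counts were drawn independently, without a shared section effect and with a spread set by level only. These shares may therefore not hold for the real sections. The count was 12 without Control section 2 and 1 without PTX section 1.

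The comparisons of PTX+GCV and of PTX+ABT263 with PTX ask whether removing p16-expressing or BCL-2-dependent cells changed the tissue after paclitaxel. Both are set against the same PTX sections, which also enter the comparison with Control, so that a PTX section that stands apart moves all of them, and each is given by its own values only.

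In PTX+GCV thalamus spots Kcnab3, Adgrf5 and Slc17a7 were higher than in PTX, Nxph1 and Calb1 were lower, and hypothalamic peptide genes differed in both directions. Of 14 potassium channel genes 4 rose and none fell, and of 19 calcium buffers and sensors 2 rose and 4 fell. Of 12298 genes 169 passed in edgeR (1.37%), 97 higher (0.789%) and 72 lower (0.585%), with 1549 at an unadjusted p under 0.05. DESeq2 called 35 higher and 20 lower, and gave an adjusted p for 2523 genes only. The count was 13 without PTX+GCV section 1, 33 without PTX+GCV section 2, 37 without PTX section 2 and 635 without PTX section 1, and it was 123 without the sections labelled PTX+ABT263.

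Kcnab3 had 84.9 and 75.0 CPM in PTX+GCV sections and 29.6 and 30.1 CPM in PTX sections (1.42 ± 0.15, adjusted p = 4.03e-05, edgeR). Eps8l2, of a family of actin regulators, had 127 and 129 CPM in PTX+GCV against 71.9 and 37.8 CPM in PTX sections. Adgrf5 had 59.6 and 45.5 CPM in PTX+GCV against 18.9 and 20.5 CPM in PTX sections, and Dio2, the deiodinase that makes active thyroid hormone, 31.3 and 37.7 CPM in PTX+GCV against 15.6 and 13.4 CPM in PTX sections. The groups did not overlap in any of the 4, but leading genes were named on that condition, so it adds no support. Slc17a7 rose as well (335 and 347 CPM in PTX+GCV, 225 and 132 CPM in PTX sections, adjusted p = 0.00307). DESeq2 gave no adjusted p for Kcnab3, Adgrf5 and Dio2.

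Nxph1 led the neuronal decreases, with 28.7 and 31.1 CPM in PTX+GCV sections and 51.8 and 76.4 CPM in PTX sections (-1.09 ± 0.17, adjusted p = 0.00181). Calb1 had 176 and 173 CPM in PTX+GCV against 231 and 357 CPM in PTX sections (adjusted p = 0.00778). The groups did not overlap in either gene, which was a condition for naming leading genes, and DESeq2 gave no adjusted p for Nxph1. Of 15 other thalamic genes 2 rose, Adarb1 and Amotl1 (248 and 250 CPM in PTX+GCV, 194 and 169 CPM in PTX sections, adjusted p = 0.046), both lost, like Calb1, in the fit of those groups alone. With 1 score limit for all sections, and also without the sections labelled PTX+ABT263, the calls of Adarb1 and Amotl1 were lost.

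Peptide genes of the hypothalamus gave wide differences. Avp had 1.51 and 1.26 CPM in PTX+GCV thalamus spots against 20.7 and 26.0 CPM in PTX thalamus spots (-4.05 ± 0.45, adjusted p = 4.03e-05), and other spots held 11.5 and 8.14 CPM in PTX+GCV against 346 and 269 CPM in PTX sections. Since Avp passed the filter on low counts through the PTX sections, where it was highest, its call is a description. Pmch, the melanin-concentrating hormone gene, had 89.4 and 124 CPM in PTX+GCV against 5.10 and 0.27 CPM in PTX thalamus spots (5.26 ± 0.62, adjusted p = 6.69e-05), and other spots held 818 and 777 CPM in PTX+GCV against 56.1 and 0.64 CPM in PTX sections. Levels in thalamus spots and in other spots were thus high and low in the same sections for both genes. DESeq2 gave no adjusted p for either, and no hypothalamic gene passed there. No haemoglobin gene passed in edgeR, with 4 of 4 at an unadjusted p under 0.05, and Hbb-bs had 184 and 32.0 CPM in PTX+GCV against 514 and 263 CPM in PTX sections. None of the microglial (0 of 13), endothelial (0 of 16) or myelin genes (0 of 15) passed in edgeR or DESeq2, and 0, 2 and 1 of them had an unadjusted p under 0.05.

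Within the patch, 36 of the 97 higher genes (37.1%) were higher in inner spots in 4 of 4 sections labelled PTX+ABT263 and Control, against 5.92% of all genes tested. Of the 72 lower genes 35 (48.6%) were lower in inner spots, against 10.1%. The difference between thalamus and other spots passed for 0 genes in limma, with 1161 at an unadjusted p under 0.05 and a smallest adjusted p of 0.304.

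Thalamus spots of the sections labelled PTX+ABT263 differed from PTX in the genes of both sex chromosomes, in peptide and haemoglobin genes, and in some relay and calcium-binding genes. Of 12298 genes 360 passed in edgeR (2.93%), 176 higher (1.43%) and 184 lower (1.5%), with 1926 at an unadjusted p under 0.05. Outside chromosomes X and Y 169 were higher and 164 lower. Scaled by total counts alone, 97 were higher and 193 lower. The count was 63 without PTX+ABT263 section 2, 190 without PTX+ABT263 section 1, 127 without PTX section 2 and 882 without PTX section 1.

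Aldh1a1 had 229 and 250 CPM in the sections labelled PTX+ABT263 and 118 and 105 CPM in PTX sections (1.10 ± 0.12, adjusted p = 6.03e-06, edgeR). Sema7a, a membrane-anchored semaphorin, had 179 and 194 CPM in sections labelled PTX+ABT263 against 111 and 75.0 CPM in PTX sections (adjusted p = 0.000331). Fzd6 had 27.9 and 28.7 CPM in sections labelled PTX+ABT263 against 12.7 and 7.67 CPM in PTX sections, and Igfbp2, which binds insulin-like growth factors, 77.5 and 58.1 CPM in those labelled PTX+ABT263 against 36.5 and 26.3 CPM in PTX sections. In these 4 genes the groups did not overlap, which was a condition for naming leading genes and adds no support. Of 14 potassium channel genes 7 rose and none fell, and Hcn2 rose as well (414 and 389 CPM in sections labelled PTX+ABT263, 276 and 297 CPM in PTX sections, adjusted p = 0.011).

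Among decreases, Fxyd7, a modulator of the sodium pump, had 73.5 and 73.9 CPM in the sections labelled PTX+ABT263 and 128 and 237 CPM in PTX sections (-1.30 ± 0.18, adjusted p = 0.000309). Timp2, an inhibitor of metalloproteinases, had 229 and 205 CPM in those labelled PTX+ABT263 against 357 and 522 CPM in PTX sections, and Calb1 163 and 159 CPM in those labelled PTX+ABT263 against 231 and 357 CPM in PTX sections. PTX section 2 again held the highest level of these genes. Avp had 0.80 and 0.97 CPM in sections labelled PTX+ABT263 against 20.7 and 26.0 CPM in PTX sections (-4.67 ± 0.47, adjusted p = 4.09e-06), and Pmch 92.9 and 33.9 CPM in those labelled PTX+ABT263 against 5.10 and 0.27 CPM in PTX sections. As Avp passed the filter on low counts through the PTX sections, its call is a description. Of 4 haemoglobin genes 4 fell, with Hbb-bs at 41.9 and 3.23 CPM in sections labelled PTX+ABT263 against 514 and 263 CPM in PTX sections.

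In DESeq2 neither Pmch nor Hbb-bs passed and Avp had no adjusted p, and with 1 score limit or the top 5% of spots Hcn2 did not. Few glial and stress genes passed. Gfap had 35.3 and 40.4 CPM in the sections labelled PTX+ABT263 and 14.0 and 22.7 CPM in PTX sections (1.04 ± 0.21, adjusted p = 0.00792). The cold-induced RNA-binding protein gene Rbm3 had 95.6 and 91.4 CPM in sections labelled PTX+ABT263 against 159 and 139 CPM in PTX sections (-0.67 ± 0.13, adjusted p = 0.00438), and it was also lower in other spots (-0.73, adjusted p = 0.0129). Of the BCL-2 family, which ABT263 targets, 0 of 11 genes passed in edgeR or DESeq2, and none had an unadjusted p under 0.05. Of 13 microglial genes none passed in either test, with 4 at an unadjusted p under 0.05. In the PTX+GCV and Control sections, 50 of the 176 higher genes (28.4%) were higher in inner spots in 4 of 4 sections, against 6.9% of all genes tested, and 90 of the 184 lower genes (48.9%) were lower, against 11.6%.

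The difference between thalamus and other spots passed for 1 gene in this comparison, the prokineticin receptor gene Prokr2, which was chosen after its values were seen. Prokr2 was at 4.08 and 6.57 CPM in PTX thalamus spots and at 0 to 1.79 CPM in the other 6 sections, so that it passed the filter on low counts through the PTX sections and its call is given as a description. Thalamus spots held 0 and 0 UMIs of Prokr2 in the sections labelled PTX+ABT263 and 16 and 24 UMIs in PTX sections, at least 12.6-fold lower against a floor of 3 counts over the group. PTX+GCV thalamus spots held 3 and 3 UMIs, and Control thalamus spots 1 and 6.

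Senescence genes were sparse in thalamus spots. Cdkn2a, which encodes p16, had no UMI in any of the 2135 thalamus spots, which allows a share of up to 0.141% of spots with a UMI over all sections. Per section the limit was 1.17% and 1.09% in PTX and 1.28% and 1.17% in Control thalamus spots, and these limits cover counting error only. Other spots had Cdkn2a in 54 of 19193 spots (0.281%). These were 16 and 9 spots in PTX, 3 and 4 in PTX+GCV, 9 and 6 in PTX+ABT263 and 2 and 5 in Control sections. Other spots held a median of 15912.5 and 13503 UMIs in PTX and 7541 and 12515.5 in Control sections, and the counts were not adjusted for this. With every section at 0, no test between groups was informative in thalamus spots.

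Of the 10 genes of the senescence panel 5 had enough counts to be tested, and none passed in any of the comparisons in edgeR or DESeq2. Unadjusted p-values under 0.05 were found for 1 in PTX against Control, 1 in PTX+GCV against PTX and 0 in PTX+ABT263 against PTX. Cdkn1a, which encodes p21, had 3.39 and 13.2 CPM in PTX+GCV sections, 9.03 and 7.43 in those labelled PTX+ABT263, 6.12 and 10.4 in PTX and 4.12 and 8.36 in Control sections, so that all groups overlapped. Bmi1, a Polycomb gene, had 28.0 and 25.7 CPM in PTX and 34.5 and 36.1 CPM in Control sections (-0.40 ± 0.16, adjusted p = 0.191). Trp53, p53 itself, had 19.6 and 17.3 CPM in PTX and 16.5 and 17.9 CPM in Control sections. The myosin gene Myh7 gave 2 to 7 UMIs per section in thalamus spots and was too low to test.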

How the data were processed

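Spatial transcriptomes of 8 hemibrain sections were analysed from the UMI counts that the authors deposited per spot. Per the file headers the counts came from Space Ranger 1.2.1, and the submitters' processing notes name mm10 and Seurat 4.0. The counts are whole numbers for 32285 features, without normalization. The members, gene lists and named genes were chosen with earlier results of these data known.

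Counts were summed per section over thalamus spots and over other spots, and the 6 score genes were left out of tests. Genes were filtered with filterByExpr, scaled by TMM and tested over all 4 groups with edgeR 4.0.16 (glmQLFit and glmQLFTest, R 4.3.3), with Benjamini-Hochberg adjustment at 0.05. DESeq2 1.42.0 was the alternative. The thalamus-minus-other difference of log2 CPM was tested per section with limma 3.58.1. Levels between groups are TMM-scaled CPM, and levels against other spots are CPM of the summed counts. Inner spots have 6 member neighbours. Intervals and floors (3 counts, 95% Clopper-Pearson) cover counting error only. Members range from 1848799 to 3964374 UMIs per section, which sets the precision of low genes.

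Named genes were the 20 highest and 10 lowest against other spots, the 10 called genes with the smallest p in each direction whose sections did not overlap, up to 4 per list, the senescence panel, Myh7, Amotl1, Xist and Ddx3y. A few genes that this rule names are not reported here. The tests were checked on simulated counts. The same array layout serves every section, so that 4042 of 4764 positions were kept in over 1 section. Both sections of a group correlated between 0.976 and 0.984 and were not copies. The alternatives included no filter, total-count scaling, fits of 2 groups, the top 5% of spots, 1 score limit, spots with at least 4 member neighbours, thinned counts, a replicate block and leaving out each section.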

Additional observations from a re-analysis of the deposited data

Results flagged for a closer look

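The difference between thalamus and other spots in PTX+ABT263 against PTX passed for Prokr2, at -5.598 on the log2 scale (SE 0.36, adjusted p = 0.0226, limma), a fitted value that depends on the prior count because thalamus spots of the sections labelled PTX+ABT263 held no UMI. It was lower in thalamus spots of 2 of 2 sections labelled PTX+ABT263. Without either PTX section, either PTX+GCV section or either PTX+ABT263 section no gene passed. It passed the filter on low counts through the PTX sections, where it was highest, so that this call is a description.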

How the results depend on the processing

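With 2 sections a group, calls rest on single sections, and low genes are limited by the UMIs of a section. The counts of 677 (PTX against Control), 169 (PTX+GCV against PTX) and 360 (PTX+ABT263 against PTX) were 299, 55 and 118 in DESeq2, 347, 66 and 162 in fits of the groups compared alone, and 165, 27 and 147 with 1 score limit for all sections. The top 5% of spots gave 263 for PTX against Control and 175 for PTX+ABT263, no filter on low counts gave 450 for PTX+GCV and 612 for PTX+ABT263, and thinned counts gave 98 and 195. Leaving out each section in turn gave 258 to 1140, 13 to 635 and 63 to 882. For the difference between thalamus and other spots, leaving out a section gave 0 to 12 calls in PTX against Control, 0 in PTX+GCV and 0 to 1 in PTX+ABT263, and the top 5% of spots gave 1 in PTX+GCV and 0 in PTX+ABT263. The causes were not tested. Spots with at least 4 member neighbours, total-count scaling and, chosen after seeing the data, genes outside chromosomes X and Y kept each of the 3 counts within 1.5 times.

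Same-numbered sections of the groups deviated with correlations of -0.038 to 0.068, so that they share only a number, and a replicate block gave 694, 228 and 371 calls and 0, 0 and 1 for the difference. Among named genes, Cdkn1a, which passed nowhere, changed sign: with 1 score limit (-0.11) and over the sections left out (-0.13 to 0.98) in PTX against Control, over the sections left out in PTX+GCV (-1.27 to 0.68), and with total counts (-0.045), the top 5% (-0.37), spots with at least 4 member neighbours (-0.13) and the sections left out (-0.33 to 0.44) in PTX+ABT263. Over the sections left out, Hcrt ran from -5.42 to 0.14 (without Control section 1) and Trp53 from -0.0082 to 0.18 in PTX against Control.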
